A study of Homo sapiens with 9 samples.

Results

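Guides against EP300, CREBBP, histone deacetylases and sirtuins were followed through a pooled sgRNA screen of U251 cells, an established human glioma line. The members were all guides whose target gene was EP300 or CREBBP, or whose gene name began with HDAC or SIRT and a digit. The rule found 40 of 11170 guides, 10 each against EP300, CREBBP, HDAC6 and SIRT2. No other HDAC or SIRT gene was among the 1117 targets of the table used here, so the label of histone deacetylases rests on HDAC6 and SIRT2 alone. Each member symbol matched a current RefSeq symbol. The count table names guides by gene and number, and they are called by those names here.

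All 9 libraries came from U251 cells that stably expressed sgRNAs, grown in DMEM with serum. There were 3 libraries each at 0, 200 and 1500 µM temozolomide, a DNA-alkylating drug, and per the protocol treatment lasted 72 hours. The titles give µM and the protocol gives nM, so the doses serve here as names of the groups. The nuclease, the vector, the number of clones and the time since infection are not stated in the labels, and no pool from before treatment was analysed. The labels do not say what a replicate number marks, so a p-value that compares libraries measures only the spread between these libraries. Each gene's 10 guides share a target and are not replicates of a condition.

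EP300 and CREBBP are paralogous transcriptional coactivators that acetylate histones and other proteins, and their bromodomains bind acetylated lysine. Deacetylases remove such marks. HDAC6 is a largely cytoplasmic zinc-dependent deacetylase of tubulin with a ubiquitin-binding zinc finger, and SIRT2 is an NAD-dependent deacetylase that also acts on tubulin.

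Total counts lay between 1852340 and 2790563 per library. Levels are given as CPM, which are counts scaled to a common library total with TMM factors, a correction for differences in library composition. UBE2A.7, a guide outside these genes, held 0.155% to 1.13% of the counts without drug and 4.97% to 18.6% under 1500 µM. The 40 guides together held 0.494% to 0.595% of the counts without drug, 0.709% to 0.954% under 200 µM and 0.806% to 1.36% under 1500 µM, and EP300.4 alone held 0.159% to 0.250%, 0.409% to 0.605% and 0.515% to 1.06%.

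EP300.4 was by far the most abundant of the 40 guides in every library. Its counts were 4099, 3680 and 4633 without drug, 8474, 8086 and 14907 under 200 µM, and 29490, 13108 and 10908 under 1500 µM, for replicates 1, 2 and 3. It was already abundant in the libraries without drug, ranking 15, 14 and 4 by count among 11170 guides. Under 200 µM it ranked 1, 3 and 3, and under 1500 µM it ranked 3 in each library. Its share of the library was 0.221%, 0.159% and 0.250% without drug, and the exact Clopper-Pearson 95% intervals ran from 0.215% to 0.228%, from 0.154% to 0.165% and from 0.243% to 0.257%. Under 1500 µM the share was 1.06%, 0.515% and 0.517%, with intervals from 1.04% to 1.07%, from 0.506% to 0.524% and from 0.507% to 0.526%. These intervals cover counting error only, since no molecular identifiers were stated.

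On the CPM scale EP300.4 was higher in all 3 libraries of either dose than in any untreated library. Its level was 2497, 1766 and 2281 CPM without drug, 3742, 4187 and 5258 CPM under 200 µM, and 10580, 6253 and 4580 CPM under 1500 µM. The means were 2181 ± 375 CPM, 4395 ± 779 CPM and 7139 ± 3098 CPM (SD, n = 3). The groups at 200 and 0 µM did not overlap, nor did those at 1500 and 0 µM. Of all tested guides 1.29% and 1.41% were likewise higher without overlap in these comparisons. Replicate 3 of EP300.4 under 1500 µM lay below its replicate 3 under 200 µM and within the range of that dose. Within replicate numbers the level under 1500 µM was 4.24, 3.54 and 2.01 times that without drug, on the CPM + 1 scale. At 200 against 0 µM these folds were 1.50, 2.37 and 2.31, and at 1500 against 200 µM they were 2.83, 1.49 and 0.871.

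In edgeR's quasi-likelihood test over all 10337 tested guides, fitted without regard to replicate number, EP300.4 did not pass at 1500 against 0 µM. Its log2 fold change was 1.69 ± 1.34 (SE), with an adjusted p of 1.00. With the replicate number as a block it was 1.62 ± 0.43, with an unadjusted p of 0.00642 and an adjusted p of 0.999 in edgeR. By log2 fold change EP300.4 ranked 433 from the top among the 10337 guides in this fit, and by p it ranked 15. DESeq2 with the same block called it, at 1.60 ± 0.27 with an adjusted p of 1.66e-05, where 6 of 10337 guides were called, or 0.058%. The DESeq2 call was lost without the libraries of replicate 2 (log2 fold change 1.53 ± 0.39, adjusted p = 0.186). It held without those of replicate 1 (1.38 ± 0.31, adjusted p = 0.00516) and without those of replicate 3 (1.91 ± 0.30, adjusted p = 1.19e-06), and it held with UBE2A.7 left out of the library totals (1.60 ± 0.27, adjusted p = 3.08e-05). Since EP300.4 was singled out with results of these libraries known, its p-values are not independent evidence.

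Between 200 and 0 µM EP300.4 had a log2 fold change of 0.99 ± 1.27 (SE) and an adjusted p of 1.00 in edgeR. With the block it had 0.99 ± 0.29 and an adjusted p of 1.00 in edgeR, and 1.01 ± 0.20 and an adjusted p of 0.00409 in DESeq2, which again called 0.058% of guides. In edgeR with the block the guide's log2 fold change ranked 833 from the top of 10337, and its p ranked 29. That DESeq2 call was lost without replicate 2 (0.90 ± 0.35, adjusted p = 0.928) or replicate 3 (0.90 ± 0.32, adjusted p = 1.00) and held without replicate 1 (1.21 ± 0.20, adjusted p = 7.58e-06). Between the doses no test called the guide. At 1500 against 200 µM it had a log2 fold change of 0.70 ± 1.02 (edgeR adjusted p = 1.00), and the log2 ratios within replicates 1, 2 and 3 were 1.50, 0.58 and -0.20. A fit over all 9 libraries with the doses coded as steps 0, 1 and 2 gave 0.86 ± 0.48 per step (edgeR adjusted p = 1.00). With the block the step was 0.84 ± 0.17 (adjusted p = 0.998) in edgeR and 0.83 ± 0.14 (adjusted p = 2.06e-05) in DESeq2. Without replicate 2 that DESeq2 call was lost (0.80 ± 0.20, adjusted p = 0.102). It held without replicate 1 (0.71 ± 0.20, adjusted p = 0.0301) and without replicate 3 (0.97 ± 0.14, adjusted p = 8.19e-09). The 3 comparisons share libraries and are not independent of each other.

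The other 9 EP300 guides were not called as a sum at either dose. Their summed level was 898, 638 and 636 CPM without drug, 948, 579 and 769 CPM under 200 µM, and 858, 522 and 640 CPM under 1500 µM. The 3 groups overlapped, and under 1500 µM each replicate lay within 0.818 to 1.01 times its own level without drug. Between 1500 and 0 µM the sum of these 9 guides had a log2 fold change of 0.034 ± 0.33 (SE, 95% interval -0.72 to 0.78, edgeR adjusted p = 1.00). With the block it was 0.012 ± 0.16, with an interval of -0.33 to 0.36 (edgeR adjusted p = 0.994). At 200 against 0 µM the blocked value was 0.20 ± 0.15, with an interval of -0.15 to 0.55 (edgeR adjusted p = 0.824). For EP300.4 itself, in the fits over guides, the 95% interval at 1500 against 0 µM was -1.43 to 4.81 without the block. This covers the 0.034 of the other 9 guides. With the block the interval was 0.61 to 2.63, which does not cover their 0.012, for a guide singled out with these results known. The difference between EP300.4 and the other 9 guides was tested only as the ratio within a library.

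Guide by guide, 2 of those 9 had a positive log2 fold change at 1500 against 0 µM and 7 a negative one, with a median of -0.24 and a range of -1.35 to 0.40. With the block the split was 4 to 5 and the median -0.16. EP300.2, the next most abundant EP300 guide, had 238 ± 82.6 CPM without drug, 202 ± 65.7 CPM under 200 µM and 207 ± 25.3 CPM under 1500 µM (SD, n = 3). EP300.7, EP300.5, EP300.1 and EP300.8 had means of 64.2 to 97.7 CPM without drug and 83.4 to 111 CPM under 1500 µM. EP300.10 and EP300.3 had 49.8 and 47.3 CPM without drug and 42.9 and 37.8 CPM under 1500 µM. EP300.9 and EP300.6 were scarce, at 19.2 and 17.0 CPM without drug, and were at 0 in 2 and 4 of the 9 libraries. Where a count was 0, as many as 3 counts could have been missed, equal to 1.06 to 1.83 CPM across the libraries.

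The ratio of EP300.4 to the other guides of its own gene is taken within a library and needs no scaling. EP300.4 had 2.78, 2.77 and 3.59 times the summed count of the other 9 guides without drug. The ratios were 3.94, 7.23 and 6.84 under 200 µM and 12.3, 12.0 and 7.15 under 1500 µM. Every treated library lay above every library without drug. As log2 ratios the means were 1.60 ± 0.21 without drug, 2.54 ± 0.48 under 200 µM and 3.35 ± 0.44 under 1500 µM (SD, n = 3). The unpaired exact two-sided permutation p was 0.1 for either dose against 0 µM, the smallest that 3 against 3 libraries allow, and 0.2 between the doses. Adjusted over the 3 comparisons these exact p-values were 0.15, 0.15 and 0.2. Since EP300.4 was singled out with results of these libraries known, these p-values too are not independent evidence. Within replicate numbers 1, 2 and 3 the log2 ratio was higher by 2.15, 2.11 and 0.996 at 1500 than at 0 µM. It was higher by 0.50, 1.38 and 0.93 at 200 than at 0 µM, and by 1.65, 0.73 and 0.065 at 1500 than at 200 µM. So it was higher in 3 of 3 pairs in each comparison. How many guides of other genes showed such a ratio, without overlap or in all pairs, was not computed. By level alone 12.2%, 10.1% and 13.3% of all tested guides were higher in all 3 pairs of these comparisons, in that order. Against the median EP300 guide rather than the sum, EP300.4 had 38.7, 39.6 and 38.9 times the count without drug, 36.8, 90.9 and 75.3 times under 200 µM, and 88.6, 162 and 94.9 times under 1500 µM. By this measure replicate 1 under 200 µM lay below the libraries without drug.

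Summed over all 10 guides, EP300 therefore followed EP300.4. The summed level was 3395, 2404 and 2917 CPM without drug, 4690, 4767 and 6026 CPM under 200 µM, and 11440, 6775 and 5220 CPM under 1500 µM. Neither dose overlapped with 0 µM, but the share of all 1117 genes that did likewise was not computed. Averaged over the libraries of a dose, EP300.4 made up 75.3% of the gene's counts without drug, 85.1% under 200 µM and 91.2% under 1500 µM. The median gene of the table had 29.3%, 27.6% and 26.8% of its counts in its top guide, and EP300 ranked 12, 3 and 4 among 1117 genes by that share. For 1500 against 0 µM the log2 fold change of the sum was 1.55 ± 0.57 (SE, 95% interval 0.25 to 2.84), with an adjusted p of 1.00 in edgeR. No gene was called among 1117 in that test, which is 0%, and 3, or 0.269%, had an unadjusted p under 0.05, EP300 among them (0.0249).

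With the block EP300 had 1.49 ± 0.41 and an adjusted p of 0.359 in edgeR, which called 0.0895% of genes. DESeq2 with the block called it (1.48 ± 0.19, adjusted p = 5.15e-12), along with 2 other genes, and 0.269% of genes were called. For 200 against 0 µM the summed value was 0.94 ± 0.47 (edgeR adjusted p = 0.998). With the block it was 0.94 ± 0.35 (edgeR adjusted p = 0.811), and DESeq2 with the block called it (0.95 ± 0.14, adjusted p = 3.67e-08) as the only gene. At 1500 against 200 µM it was 0.59 ± 0.42 (edgeR adjusted p = 0.999), and without EP300.4 it was -0.18 ± 0.34 (edgeR adjusted p = 1.00). Without EP300.4 the sum was fitted in edgeR only, which called neither sum.

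CREBBP, the paralogue of EP300, had no called guide and no called sum in any comparison, by edgeR or DESeq2, with or without the block. Nor had HDAC6 or SIRT2, also not between the doses, where DESeq2 with the block called 0.416% of guides and 2.15% of genes. The CREBBP sum was 684, 1522 and 826 CPM without drug, 513, 1060 and 782 CPM under 200 µM, and 588, 998 and 906 CPM under 1500 µM. Replicate 2 was the highest at every dose, and the 3 groups overlapped. Within replicate numbers the level under 200 µM was 0.751, 0.697 and 0.947 times that without drug, and under 1500 µM it was 0.860, 0.656 and 1.10 times. The summed log2 fold change was -0.25 ± 0.39 (SE, 95% interval -1.16 to 0.65) under 200 µM and -0.14 ± 0.37 (-0.995 to 0.71) under 1500 µM, with adjusted p-values of 0.998 and 1.00 in edgeR. With the block these were -0.23 ± 0.14 (-0.56 to 0.098) and -0.11 ± 0.18 (-0.48 to 0.27), with adjusted p-values of 0.811 and 0.942 in edgeR.

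CREBBP.5 was the CREBBP guide with the lowest p in both comparisons with 0 µM. Its level was 210, 369 and 231 CPM without drug, 155, 155 and 98.4 CPM under 200 µM, and 149, 108 and 144 CPM under 1500 µM. Every treated library lay below every library without drug, as for 1.12% of all tested guides at 200 µM and 1.27% at 1500 µM. The guide had a log2 fold change of -1.03 ± 0.64 at 1500 against 0 µM (SE, edgeR adjusted p = 1.00), and -0.99 ± 0.36 with the block (unadjusted p = 0.0276, edgeR adjusted p = 0.999). Under 200 µM it was -1.01 ± 0.66 (edgeR adjusted p = 1.00), and -0.995 ± 0.32 with the block (unadjusted p = 0.0180, edgeR adjusted p = 1.00). CREBBP.4 was also among the 3 lower guides of lowest p under 1500 µM, with -0.71 ± 0.70 (edgeR adjusted p = 1.00) and a level of 223 ± 104 CPM without drug, 157 ± 31.4 CPM under 200 µM and 139 ± 44.3 CPM under 1500 µM (SD, n = 3).

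The other CREBBP guides went either way. At 1500 against 0 µM 5 of 10 had a positive and 5 a negative log2 fold change, with a median of -0.031, and at 200 against 0 µM the split was 3 to 7 with a median of -0.18. CREBBP.7 was higher at 1500 than without drug in each of the 3 replicate pairs, with log2 ratios of 0.89, 0.24 and 0.73 and overlapping groups. CREBBP.2 was most abundant in replicate 3, with counts of 580, 809 and 803 there at 0, 200 and 1500 µM, against 0 to 132 in the other 6 libraries. CREBBP.8 was highest in replicate 2, with 708, 430 and 528 counts against 57 to 171 elsewhere. CREBBP.10 and CREBBP.3 had 100 and 23.8 CPM on average without drug, and CREBBP.9 had 40.8 CPM. CREBBP.6 was at 0 in 5 libraries and CREBBP.1 in 2, with at most 147 and 31 counts.

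HDAC6 guides showed no called change. The summed level was 490, 1062 and 1004 CPM without drug, 480, 885 and 867 CPM under 200 µM, and 619, 891 and 792 CPM under 1500 µM, with overlapping groups and replicate 1 the lowest at every dose. For 1500 against 0 µM the log2 fold change of the sum was -0.038 ± 0.37 (SE, 95% interval -0.89 to 0.81, edgeR adjusted p = 1.00), and 0.036 ± 0.18 (-0.34 to 0.41, edgeR adjusted p = 0.986) with the block, so its sign depended on the fit. At 200 against 0 µM it was -0.098 ± 0.42 (edgeR adjusted p = 0.998), and -0.065 ± 0.14 (-0.39 to 0.26) with the block (edgeR adjusted p = 0.916). The 95% intervals with the block correspond to a fold of 0.789 to 1.33 under 1500 µM and 0.765 to 1.20 under 200 µM.

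Among the 9 tested HDAC6 guides, 2 had a positive and 7 a negative log2 fold change at 1500 against 0 µM, between -0.44 and 0.36, and none had an unadjusted p under 0.05 in edgeR with or without the block. HDAC6.4 differed widely between replicates, with counts of 802, 574 and 648 in replicate 3 at the 3 doses, 58, 50 and 318 in replicate 1, and 15, 0 and 31 in replicate 2. It was lower at 200 than without drug in all 3 pairs and higher at 1500 than under 200 µM in all 3 pairs. The latter log2 fold change was 2.02 ± 0.80 with the block (unadjusted p = 0.0416, edgeR adjusted p = 1.00). HDAC6.7 was highest in replicate 2, with 816, 566 and 570 counts against 14 to 175 elsewhere, and HDAC6.5 in replicate 3, with 513, 826 and 474 against 42 to 120. HDAC6.10, HDAC6.8, HDAC6.6, HDAC6.1 and HDAC6.3 had means of 69.1 to 99.99 CPM without drug and 65.6 to 91.7 CPM under 1500 µM, and HDAC6.9 had 33.5 and 30.8 CPM. HDAC6.2 was the only member below the minimum for testing, at 0 in 7 libraries and with at most 18 counts.

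SIRT2 sums were not called either. They were 1004, 1054 and 677 CPM without drug, 796, 914 and 610 CPM under 200 µM, and 954, 1120 and 655 CPM under 1500 µM. Replicate 3 was the lowest at each dose, and the groups overlapped. Under 200 µM the sum was 0.793, 0.868 and 0.902 times that without drug within replicate numbers, and under 1500 µM it was 1.20, 1.22 and 1.07 times that under 200 µM. The log2 fold change of the sum between the doses was 0.24 ± 0.28 (SE, edgeR adjusted p = 0.999), and 0.23 ± 0.12 (95% interval -0.021 to 0.48, edgeR adjusted p = 0.764) with the block. At 1500 against 0 µM it was 0.12 ± 0.30 (-0.57 to 0.81, edgeR adjusted p = 1.00), and 0.11 ± 0.16 (-0.22 to 0.45, edgeR adjusted p = 0.926) with the block.

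Beside EP300.4, only the member guide SIRT2.9 had all libraries under 1500 µM above those without drug, as had 1.41% of all tested guides. Its level was 60.9, 50.4 and 43.3 CPM without drug, 72.4, 38.8 and 23.6 CPM under 200 µM, and 116, 63.0 and 99.9 CPM under 1500 µM. The guide had a log2 fold change of 0.83 ± 0.63 at 1500 against 0 µM (SE, edgeR adjusted p = 1.00), and 0.80 ± 0.43 with the block (edgeR adjusted p = 0.999). Against 200 µM it was 1.05 ± 0.70 (edgeR adjusted p = 1.00), and 1.15 ± 0.48 with the block (unadjusted p = 0.0486, edgeR adjusted p = 1.00). SIRT2.8 was the third higher guide of lowest p at 1500 against 0 µM, with 0.77 ± 1.25, and 141, 20 and 44 counts without drug against 449, 18 and 80 under 1500 µM.

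SIRT2.5 and SIRT2.1 followed CREBBP.5 among the lower guides of lowest p at 200 against 0 µM. SIRT2.5 had 47, 23 and 57 counts without drug, 3, 0 and 29 under 200 µM, and 14, 55 and 32 under 1500 µM. Within replicate numbers its level under 1500 µM was 0.203, 2.26 and 0.497 times that without drug. Its log2 fold change under 200 µM was -2.49 ± 1.84 (SE, edgeR adjusted p = 1.00), a value that rests on few counts. SIRT2.1 had 63, 155 and 513 counts without drug, 27, 100 and 296 under 200 µM, and 212, 151 and 389 under 1500 µM, with -1.12 ± 1.04 at 200 against 0 µM (edgeR adjusted p = 1.00) and -1.17 ± 0.42 with the block (unadjusted p = 0.0284, edgeR adjusted p = 1.00). The higher guides of lowest p under 200 µM were SIRT2.6 (0.94 ± 1.16), EP300.4 and EP300.7 (0.65 ± 0.86), and those at 1500 against 200 µM were SIRT2.9, SIRT2.1 (0.89 ± 0.88) and SIRT2.5 (1.88 ± 2.04), each with an edgeR adjusted p of 1.00. The lower guides between the doses were EP300.10 (-0.72 ± 0.74), SIRT2.6 (-1.03 ± 1.73) and EP300.7 (-0.43 ± 0.91), none of which passed.

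SIRT2.4 was the most abundant SIRT2 guide, with 350, 1425 and 252 counts without drug and 557, 1328 and 278 under 1500 µM. Its level under 1500 µM was 0.938, 0.926 and 0.941 times that without drug within replicate numbers. SIRT2.7 and SIRT2.10 had 133 and 122 CPM on average without drug and 106 and 108 CPM under 1500 µM. SIRT2.2 had 34.8 and 30.2 CPM. SIRT2.3 was at 0 in replicate 1 without drug, and had 12 counts there under 200 µM and 51 under 1500 µM. In replicate 2 it had 158, 111 and 158 counts at 0, 200 and 1500 µM, and in replicate 3 it had 28, 63 and 164.

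The 39 tested guides are set here beside all tested guides, with no test of the difference. At 1500 against 0 µM 13 had a positive log2 fold change and 26 a negative one, with a median of -0.14, and among all tested guides 43.9% were positive and the median was -0.079. Without EP300.4 the numbers were 12 and 26, with a median of -0.15. With the block 18 of 39 were positive with a median of -0.053, or 17 of 38 with a median of -0.066 without EP300.4, against 48.9% and -0.017 for all guides. For 200 against 0 µM 14 of 39 were positive (median -0.13), or 13 of 38 without EP300.4 (median -0.14), against 42.5% and -0.091. With the block 16 of 39 were positive there with a median of -0.19, or 15 of 38 with a median of -0.19 without EP300.4, against 44.4% and -0.078. At 1500 against 200 µM 19 of 39 were positive (median -0.0029), or 18 of 38 without EP300.4 (median -0.0061), against 50.8% and 0.010. With the block 22 of 39 were positive between the doses (median 0.16), or 21 of 38 without EP300.4 (median 0.12), against 53.7% and 0.049. The medians of the members thus lay further from 0 than those of all guides in each comparison with the block. Without the block this did not hold between the doses, with -0.0029 for members and 0.010 for all guides. A median over 39 guides scatters more than one over 10337, and the difference was not tested.

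No member guide was called in edgeR in any of the 3 comparisons or the dose step, with or without the block, and none of the 10337 tested guides was, which is 0%. At an unadjusted p under 0.05 the fit without the block held 0 of 39 members in each comparison, against 0.203% of all guides at 1500 against 0 µM, 0.135% at 200 against 0 µM and 0.203% between the doses. DESeq2 without the block held 1 (EP300.4), 0 and 0 members at that level and called none, against 0.59%, 0.387% and 0.319% of all guides. With the block edgeR held 2 members at 1500 against 0 µM (CREBBP.5 and EP300.4), against 2.61% of all guides. It held 3 at 200 against 0 µM (CREBBP.5, EP300.4 and SIRT2.1), against 2.23%, and 2 between the doses (HDAC6.4 and SIRT2.9), against 1.95%. The members without EP300.4 numbered 1, 2 and 2 of 38. In the dose step edgeR held 0 members without the block, against 0.339% of guides, and 3 with it (CREBBP.5, EP300.4 and SIRT2.3), against 3.77%, and DESeq2 without the block held 2 (CREBBP.5 and EP300.4), against 0.967%. DESeq2 with the block held 3, 5 and 5 of 39 members in the 3 comparisons, against 4.67%, 4.09% and 10.2% of all guides. In the dose step it held 4, against 5.92%.

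By libraries that did not overlap between groups, 2 of 39 members were higher at 1500 than without drug, against 1.41% of all tested guides, and 1 was lower, against 1.27%. At 200 against 0 µM 1 member was higher, against 1.29%, and 2 were lower (CREBBP.5 and SIRT2.5), against 1.12%. Between the doses no member stood apart, against 1.53% of guides higher and 1.17% lower. Moving the same way in all 3 replicate pairs was more common. At 1500 against 0 µM 3 members were higher in every pair, against 12.2% of all guides, and 5 were lower, against 12.6%. Between 200 and 0 µM the counts were 5 against 10.1% and 6 against 13.9%. At 1500 against 200 µM they were 8 against 13.3% and 4 against 11.5%, and 4 of those 8 were SIRT2 guides.

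Libraries with the same replicate number resembled each other in the member guides, as they did over all tested guides. For 26 of 39 tested members the same replicate number held the highest level at all 3 doses, against 61.8% of all tested guides. It was replicate 1 for 6 members, replicate 2 for 13 and replicate 3 for 7. Across the 39 members, log2(CPM + 1) correlated at 0.827 to 0.898 between libraries of the same number and at 0.276 to 0.722 between libraries of the same dose. Over all tested guides these ranges were 0.798 to 0.885 and 0.394 to 0.493. The points share library and guide, and the values are a description. EP300.4 was not among the 26, with its highest level in replicate 1 at 0 and 1500 µM and in replicate 3 under 200 µM.

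Other genes of lysine acetylation in the library were given by a list. Of 19 further acetyltransferases 8 were measured (KAT2A, KAT2B, KAT5, KAT6A, KAT6B, KAT7, KAT8 and CLOCK). On summed counts at 1500 against 0 µM 5 had a positive and 3 a negative log2 fold change, none was called in either direction by edgeR with or without the block, and the median was 0.065 against -0.026 for all 1117 genes. The values ran from -0.93 ± 0.55 (SE) for KAT5, the catalytic subunit of the TIP60 complex, to 0.25 ± 0.48 for KAT7. Between 200 and 0 µM 4 were positive and 4 negative, with a median of 0.023. Of 42 subunits of deacetylase complexes 4 were measured (PHF21A, RBBP4, RBBP7 and ZMYM2), 2 positive and 2 negative under 1500 µM with a median of -0.052 and none called. Of 14 acetyl-lysine readers only YEATS2 was measured, with -0.080 ± 0.44 at 1500 against 0 µM (edgeR adjusted p = 1.00).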

How the data were processed

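Raw counts of 9 libraries, deposited by the authors as 1 table with a row for each sgRNA, were used as they stood. The submitters' processing notes name cutadapt 1.18, MAGeCK 0.5.8 and hg19. How reads were counted and whether guides were filtered is not stated there. RefSeq symbols were those of assembly GRCh38.p14, and no coordinate was used.

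Guides that reached 10 counts in 3 or more libraries, 10337 in all, entered the quasi-likelihood test of edgeR 4.0.16 (robust, with TMM factors, in R 4.3.3), each pair of doses on its 6 libraries, and so did the counts of all 1117 genes, summed over guides. P-values were adjusted over all tested guides or genes after Benjamini and Hochberg (Benjamini-Hochberg), and 0.05 was the threshold. An SE was obtained by dividing the size of the log2 fold change by the root of its F statistic. DESeq2 1.42.0, the replicate block, other filters, other size factors and left-out libraries were alternatives. The programs were tested on simulated data. Summed counts weight abundant guides, and single guides near 0 carry wide errors.

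Replicate numbers were checked for pairing. After the mean of each dose was removed, correlations were 0.667 to 0.776 in all 9 pairs of libraries with the same number, above the limit of 0.1. Same-numbered samples were therefore treated as pairs in the ratios within replicate numbers and in the fits with the block. The fits without the block, set as the main test beforehand, and the exact permutation ignored this pairing. The pairing comes from these data and not from the labels.

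The members and lists were chosen with earlier results of these data known. Each member gene was described. Guides were named if they were EP300.4, among the 3 of lowest p per direction in a pair of doses, past an adjusted threshold in any fit, or the most abundant of their gene. Others were named after their values were seen.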

Additional observations from a re-analysis of the deposited data

How the results depend on the processing

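In edgeR without the block the count of called member guides and of called member genes was 0 in every comparison. With DESeq2 and the replicate block it was 1 guide (EP300.4) and 1 gene (EP300) at 1500 against 0 µM, at 200 against 0 µM and in the dose step, and with DESeq2 without the block 1 gene (EP300) in the dose step (log2 fold change 0.77, adjusted p = 0.00395). The blocked DESeq2 values of EP300.4 were 1.60, 1.01 and 0.83, and those of EP300 were 1.48, 0.95 and 0.76. EdgeR with the replicate block called 0 of either. Other filters, RLE factors, all 9 libraries in 1 fit, leaving out UBE2A.7 and leaving out each library in turn kept all these counts at 0 in edgeR.

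EP300.4 kept its sign under every alternative run. With at most 1 library left out its log2 fold changes were 1.31 to 1.93 at 1500 against 0 µM, 0.86 to 1.11 at 200 against 0 µM and 0.29 to 0.94 at 1500 against 200 µM. With all libraries of 1 replicate number left out of the block fits, an alternative chosen after seeing the data, they were 1.38 to 1.92, 0.90 to 1.21 and 0.19 to 1.05. The EP300 sum turned to -0.18 at 1500 against 200 µM without EP300.4. HDAC6 turned with the replicate block to 0.036 at 1500 against 0 µM and 0.019 in the dose step, and to 0.024 and 0.013 in DESeq2 with the block. The cause was not tested. With 1 library left out, the ranges at 1500 against 0 µM were -0.37 to 0.19 for CREBBP, -0.33 to 0.18 for HDAC6 and -0.0020 to 0.27 for SIRT2. At 200 against 0 µM they were -0.47 to 0.11 for CREBBP and -0.38 to 0.14 for HDAC6. At 1500 against 200 µM they were -0.12 to 0.29 for CREBBP and -0.18 to 0.25 for HDAC6. In the dose step they were -0.17 to 0.10 for CREBBP, -0.15 to 0.084 for HDAC6 and -0.0074 to 0.12 for SIRT2. The SIRT2 sum kept its sign in the other comparisons under all 15 alternatives, at -0.25 to -0.0080 at 200 against 0 µM and 0.11 to 0.38 at 1500 against 200 µM, and was called in none. Depth limits guides near 0 counts, such as HDAC6.2, CREBBP.1 and SIRT2.5.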
